A study of Mus musculus with 6 samples.

Results

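Transcripts of chromatin remodellers, histone acetyltransferases and bromodomain proteins were examined in the mouse tumour cell line TC-1/A9 after treatment with a pair of epigenetic inhibitors. The genes were chosen by their symbols in the array annotation: those beginning with Smarc, Arid, Ing, Chd, Brd or Kat (the last 4 followed by a number), together with Ep300, Crebbp, Baz1a, Baz1b, Baz2a and Bptf. A total of 47 such genes, measured by 69 probes, were among the 9192 genes tested. TC-1/A9 cells have a C57BL/6 background and low surface MHC class I. The line came from tumours that TC-1 cells formed in immunized mice, and TC-1 itself is lung cells transfected with papillomavirus oncogenes and an activated ras gene, so a single transformed line stands behind all values. In the DAC/TSA group, the cells received 3 μM 5-aza-2′-deoxycytidine (DAC), an inhibitor of DNA methyltransferases, for 48 h. They were then kept for a further 24 h with 30 ng/ml trichostatin A (TSA), an inhibitor of histone deacetylases. The untreated group received neither agent, and no group received DAC or TSA alone, so that the effects of the agents cannot be told apart. Each group held 3 biological replicates, and the RNA of each culture went onto its own Illumina Mouse WG-6 array, a chip of bead-bound probes. The comparison asks how genes respond to the epigenetic treatment.

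Chromatin remodellers are ATP-driven machines that slide, evict or exchange nucleosomes, and they fall into the SWI/SNF, ISWI, CHD and INO80 families. Histone acetyltransferases place the acetyl groups that histone deacetylases remove, and bromodomains are the protein folds that bind acetylated lysines. A treatment with a deacetylase inhibitor thus acts on the mark that several of these proteins write or read, and subunits of SWI/SNF are often mutated in tumours.

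Arrays of a group correlated at r = 0.992 or above. Each DAC/TSA array detected more probes (15008 to 15783) than each untreated array (14704 to 14802). The 6 arrays also differed in brightness before normalisation. The median log2 signal of probes detected on all 6 arrays was 7.65, 8.03 and 8.08 on untreated arrays 1, 2 and 3. It was 7.85, 8.23 and 8.01 on DAC/TSA arrays 1, 2 and 3. The brightness of a probe depends on its sequence, so levels were compared between groups for each probe and never between genes. Signals are given on the log2 scale after quantile normalisation, where the limit of detection lay between 5.73 and 5.84 on the 6 arrays. In a culture, fewer cells that express a gene and less RNA per cell cannot be told apart. Of 8 lung epithelial markers, Aqp5 (2.11 on the log2 scale) and Napsa (0.48) were measured and rose, their summed linear signal being 258 to 261 in untreated and 939 to 1025 in DAC/TSA cells, and no kept probe was named for Sftpa1, Sftpb, Sftpc, Sftpd, Scgb1a1 or Nkx2-1. Of 8 epithelial markers, 5 were measured, 4 of them higher, with a summed signal of 243 to 263 in untreated and 785 to 938 in DAC/TSA cells, and no kept probe was named for Cdh1, Epcam or Esrp1. Of 10 immune cell markers, 6 were measured, with a summed signal of 527 to 547 in untreated and 582 to 607 in DAC/TSA cells on the linear scale, and 4 of them were higher and 2 lower. No kept probe was named for Ptprc, Cd3e, Itgam or Cd68. Of 8 mesenchymal markers, 6 were measured, 4 lower and 1 higher, and their summed signal went from 19447 to 20209 in untreated cells to 9908 to 10821 in DAC/TSA cells. The part of these shifts in the results was not tested.

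Most of the genes that changed were lower after DAC/TSA. Of the 47 genes, 22 fell and 2 rose at a false discovery rate (FDR) of 0.01 (limma, Benjamini-Hochberg over all kept probes), while 23 did not pass. The share that fell was 46.8%, against 21.4% of all genes tested, and the share that rose was 4.26%, against 22.5%. The log2 difference was below 0 for 40 of the 47 genes, against 48.7% of all genes. Its median was -0.30, with quartiles at -0.57 and -0.16, whereas the median over all genes was 0.01. Decreases of at least 1.5-fold were found for 11 genes, against 11.9% of all genes, and an increase of that size for 1 gene, against 11.8%. All 3 DAC/TSA arrays lay below all 3 untreated arrays for 31 genes (31.3% of all genes) and above them for 3 genes (32.6%), and the groups overlapped for 13. In these signals, which were not corrected for background, the largest decreases were those of Chd3, Arid5a, Ing4, Ep300 and Kat6b. The genes that rose were Smarca1 and Brd7.

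**Figure D1:**
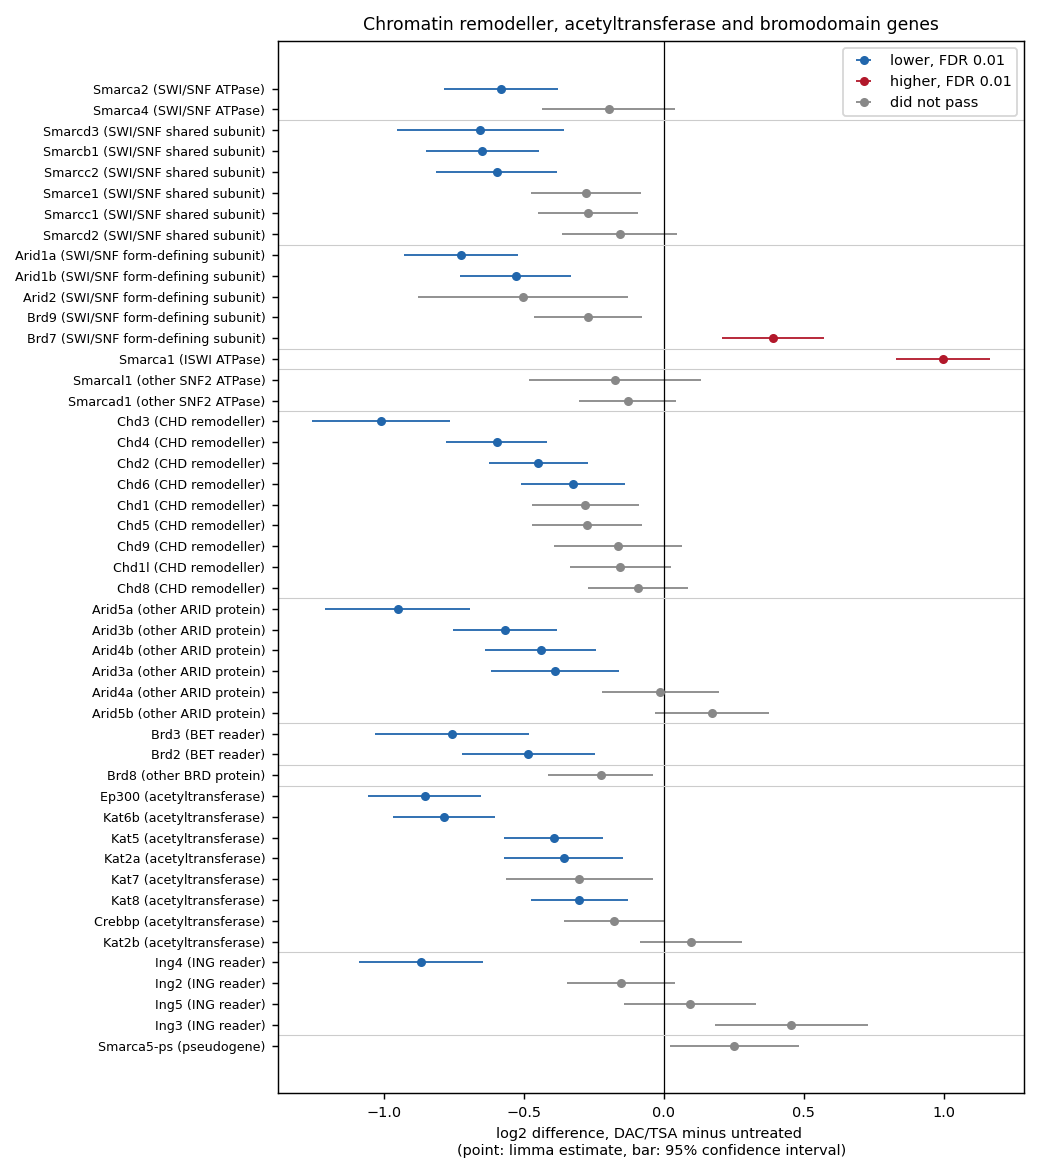
Log2 difference between DAC/TSA and untreated cells for each of the 47 genes, grouped by role; points are limma estimates from 3 arrays per group and bars are 95% confidence intervals. Blue points (22 genes) lie left of 0 and passed the test, red points (Smarca1 and Brd7) lie right of it, and the 23 grey points did not pass.

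The excess of decreases depended on how the arrays were scaled and, with median scaling over all probes, on whether they were paired by number. With median scaling over all probes, whose median lies below the limit of detection, 4 of the 47 genes were lower and 1 was higher. The share that fell was then 8.51%, against 8.44% of all genes, although the median difference was still -0.22 against 0.09 for all genes. The share of increases among the genes that changed went from 8.33% to 20%, the latter resting on 1 gene. Over all genes, this share went from 51.3% to 61.1%. When the median was taken over the probes detected on all 6 arrays, 18 genes were lower and 2 higher (38.3% lower, against 17.98% of all genes). Over the genes detected in both groups, 20 of 44 genes were lower (21.9% of all such genes) and 1 was higher (20%). With the arrays of the same number taken as pairs, the genes lower numbered 29 and those higher 3. Calls rose across all genes as well, to 27.3% lower and 29.4% higher. Median scaling over all probes with this pairing, a setting chosen after seeing the data, gave 21 lower and 5 higher. The share that fell was then 44.7%, against 22.1% of all genes.

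**Figure D2:**
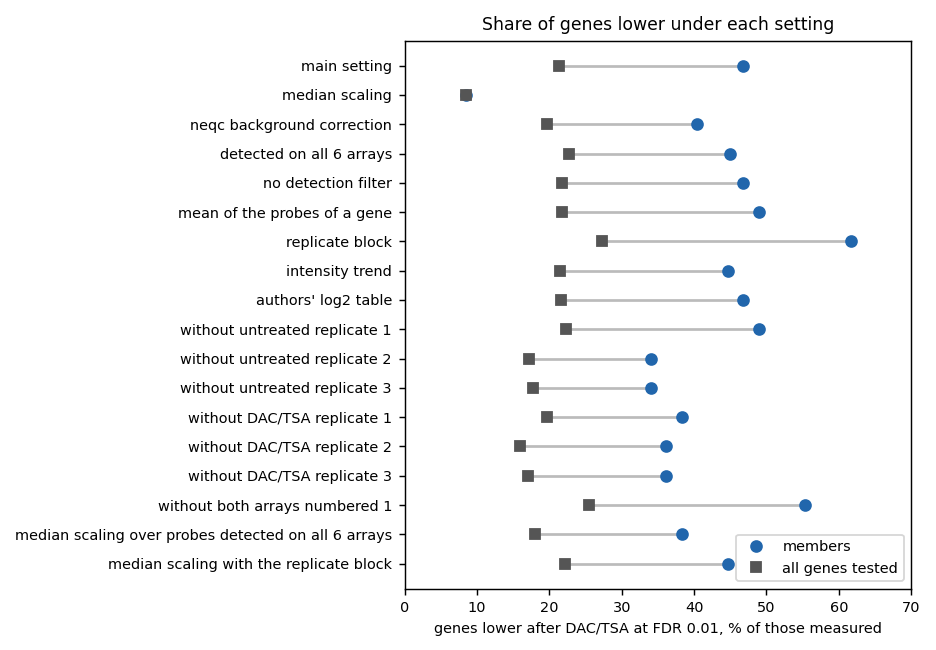
Percentage of genes lower after DAC/TSA at an FDR of 0.01 (x axis) under the main setting and under each alternative (y axis), for the 47 genes (circles) and for all genes tested (squares). The circle lies to the right of the square under every setting drawn except median scaling over all probes without pairing, where 8.51% and 8.44% nearly coincide.

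Sequences around the start sites are shown for the genes with the largest changes for which one was given and which were detected on every array, together with Smarca1, which was added after its values were seen. Each is the RefSeq sequence of assembly GRCm38.p6 over 300 bases that span a start site, printed on the strand of the gene with each CpG, the dinucleotide that DNA methyltransferases methylate, in capitals. Smarca1 (chrX:47892564-47892863, minus strand) holds 9 CpGs, Brd7 (chr8:88362123-88362422, minus strand) 31, Arid5a (chr1:36307483-36307782, plus strand) 22 and Ing4 (chr6:125039598-125039897, plus strand) 16.
Smarca1: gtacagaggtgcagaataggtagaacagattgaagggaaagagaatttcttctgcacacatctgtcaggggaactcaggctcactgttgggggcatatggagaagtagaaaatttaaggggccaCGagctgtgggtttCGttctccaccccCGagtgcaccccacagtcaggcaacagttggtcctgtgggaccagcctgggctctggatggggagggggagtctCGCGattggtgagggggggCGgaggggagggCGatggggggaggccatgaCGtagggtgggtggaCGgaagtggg
Brd7: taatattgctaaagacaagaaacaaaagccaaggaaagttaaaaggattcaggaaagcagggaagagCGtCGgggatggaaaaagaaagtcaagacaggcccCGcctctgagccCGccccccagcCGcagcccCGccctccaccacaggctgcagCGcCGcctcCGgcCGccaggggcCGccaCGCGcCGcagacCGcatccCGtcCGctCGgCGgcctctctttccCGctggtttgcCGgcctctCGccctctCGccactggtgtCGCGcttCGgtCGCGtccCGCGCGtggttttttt
Arid5a: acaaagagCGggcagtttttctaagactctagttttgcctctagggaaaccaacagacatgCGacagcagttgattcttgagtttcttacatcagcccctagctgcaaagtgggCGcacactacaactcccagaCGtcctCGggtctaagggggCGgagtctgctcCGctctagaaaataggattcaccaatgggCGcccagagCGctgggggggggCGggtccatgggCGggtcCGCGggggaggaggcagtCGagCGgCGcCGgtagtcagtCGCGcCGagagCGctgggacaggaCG
Ing4: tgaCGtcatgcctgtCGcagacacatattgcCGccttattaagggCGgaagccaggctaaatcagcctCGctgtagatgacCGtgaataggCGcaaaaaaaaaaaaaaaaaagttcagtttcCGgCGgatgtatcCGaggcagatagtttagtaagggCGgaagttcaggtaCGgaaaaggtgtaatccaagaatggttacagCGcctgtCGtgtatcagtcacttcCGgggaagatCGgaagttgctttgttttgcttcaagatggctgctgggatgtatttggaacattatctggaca

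The CpG number of the promoter was alike in the genes that fell and in those that did not pass. Such a sequence was matched for 38 of the 47 genes, with 4 to 49 CpGs and a median of 24.25, against 21 over the 7472 tested genes with one. The median was 24 for the 19 genes that fell and 24.5 for the 17 that did not pass. Across the 38 genes, the CpG number and the log2 difference had r = -0.32 and rho = -0.29, against r = -0.07 over the tested genes, as a description of genes that share the same arrays. The letters CCGGAAG, searched on both strands as a core of ETS-family sites, were found for 11 of the 38 genes (28.9%), against 21.1% of the tested genes with a promoter and 8.86% of all promoters in the table. The letters TGACGTCA, the cAMP response element, were found for Ing4 and Ing3 (5.26%, against 3.63% of tested genes and 1.79% of all promoters). A match is a string of letters and says nothing of binding in these cells.

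The SWI/SNF complexes, which in mammals are called BAF and PBAF, use Smarca2 or Smarca4 as their ATPase. Smarca2 fell after DAC/TSA, from log2 signals of 10.56, 10.57 and 10.36 on the untreated arrays to 10.01, 9.86 and 9.87 on the DAC/TSA arrays. The groups did not overlap, and the decrease was 1.495-fold (95% confidence interval 1.30 to 1.72, log2 difference -0.58 ± 0.09 SE, limma adjusted p = 0.000393, n = 3 per group). Smarca4 gave 7.17, 7.35 and 7.41 untreated and 6.92, 7.17 and 7.25 after DAC/TSA, groups that overlapped, with a log2 difference of -0.20 ± 0.11 (adjusted p = 0.149). Within each array, the Smarca4 signal minus that of Smarca2 was higher by 0.38 after treatment, but the groups overlapped (two-sided exact permutation test, p = 0.2, where 0.1 is the smallest p that 3 against 3 arrays allow). Between arrays of the same number, this shift was 0.29, 0.53 and 0.33.

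Among the shared subunits, Smarcb1, the core subunit lost in rhabdoid tumours, fell by 0.65 ± 0.09 on the log2 scale (adjusted p = 0.000186), and the scaffold subunit Smarcc2 fell by 0.60 ± 0.10 (adjusted p = 0.00053). Smarcd3, an alternative subunit that links the complex to transcription factors and is best known from heart and muscle, went from 6.49, 6.85 and 6.80 to 5.78, 6.21 and 6.20 (log2 difference -0.65 ± 0.13, adjusted p = 0.00217). Its probe was detected on 2 of the 3 DAC/TSA arrays, and it no longer passed without untreated array 3 (adjusted p = 0.0107). Smarce1 (-0.28), Smarcc1 (-0.27) and Smarcd2 (-0.16) did not pass. With arrays paired by number, Smarce1 (adjusted p = 0.00721) and Smarcc1 (adjusted p = 0.00547) passed. The within-array difference of the scaffold paralogues, Smarcc1 minus Smarcc2, was higher by 0.33 after treatment without overlap (exact permutation p = 0.1).

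The subunits that define the form of the complex did not move one way. Arid1a, a DNA-binding subunit of BAF and a frequent target of mutation in tumours, went from 6.43, 6.67 and 6.53 to 5.78, 5.93 and 5.75, near the limit of detection, and its probe was detected on 1 of 3 DAC/TSA arrays (log2 difference -0.72 ± 0.09, adjusted p = 9.5e-05). Its paralogue Arid1b fell by 0.53 ± 0.09 (adjusted p = 0.000647) by its brightest probe, while its dimmer probe did not pass (-0.22, adjusted p = 0.0389). Brd7, a bromodomain subunit of PBAF, was in contrast higher. Its signals of 8.81, 8.81 and 8.65 rose to 9.16, 9.15 and 9.12, a 1.31-fold increase (1.16 to 1.49, log2 difference 0.39 ± 0.08, adjusted p = 0.00241) with no overlap of the groups. Brd7 did not pass without untreated array 3 (adjusted p = 0.0137) or without DAC/TSA array 2 (adjusted p = 0.0126). Its dimmer probe did not pass either (0.32, adjusted p = 0.0367). Arid2, another PBAF subunit, had a log2 difference of -0.50 with overlapping groups (adjusted p = 0.029), and Brd9, the bromodomain subunit of the noncanonical form, had one of -0.27 (adjusted p = 0.0233). Both passed with arrays paired by number (adjusted p = 0.000147 and 0.00461), and Arid2 also without untreated array 1 (0.00125). The value for Brd9 is that of its brightest probe. Its other probe passed (-0.41, adjusted p = 0.0022), as did the mean of its probes (-0.34, adjusted p = 0.00299). In all, 13 SWI/SNF subunits named by the rule were measured, 6 of them lower and 1 higher, with a median difference of -0.50. The share lower was 46.2%, against 21.4% of all genes.

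Partners of SWI/SNF that the symbol rule does not take were examined as a list of their own. Of 16 such subunits 9 were measured, and 6 of them were lower (66.7%, against 21.4% of all genes) and none higher at the same FDR, with a median of -0.60. Of the 9, 7 had an unadjusted p under 0.05, all with a difference below 0, against 62.7% of all genes in either direction. Bcl7a, a small BAF subunit, had the largest decrease of all partners examined, from 7.503, 7.62 and 7.52 to 6.51, 6.47 and 6.43 (2.11-fold, log2 difference -1.08 ± 0.08, adjusted p = 2.26e-06). Ss18l1 (-0.87), Bicral (-0.74), Pbrm1, the bromodomain-rich PBAF subunit (-0.71), Bcl7c (-0.60) and Phf10 (-0.59) also fell. Ss18, the subunit fused in synovial sarcoma, had a difference of -0.02 and Actl6a one of -0.07, with overlapping groups.

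Smarca1, an ATPase of the ISWI family of nucleosome-spacing enzymes that is best known from the brain, had the largest increase. Its log2 signals were 5.35, 5.32 and 5.40 on the untreated arrays, where it was detected on none, and 6.36, 6.36 and 6.34 on the DAC/TSA arrays, where it was detected on each. The spread within each group was far below the gap between them. Against the limit of detection, Smarca1 was at least 1.44-fold higher (log2 difference of the measured signals 0.999 ± 0.08, limma adjusted p = 2.8e-06). As this gene was kept only through the treated arrays, it could differ only upward. No kept probe was named for Smarca5, the other ISWI ATPase, or for Baz1a, Baz1b, Baz2a and Bptf, which pair with these ATPases. The probe of a Smarca5 pseudogene, Smarca5-ps, gave a difference of 0.25 (adjusted p = 0.0638), and whether it also captures Smarca5 transcripts was not tested. Among the ISWI partners on a separate list, Pole3 rose (0.46, adjusted p = 0.00537), while Chrac1 (-0.31) and Rsf1 (-0.25) did not pass.

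All 9 measured CHD remodellers had a difference below 0 (48.7% of all genes), and 4 passed the test (44.4%, against 21.4% lower among all genes). Chd3 and Chd4 are alternative ATPases of NuRD, a complex that joins remodelling with histone deacetylation. Chd3 had the largest decrease of all 47 genes, from 6.79, 7.08 and 7.09 to 6.15, 5.87 and 5.91 (2.01-fold, 1.70 to 2.39, log2 difference -1.01 ± 0.11, adjusted p = 3.51e-05). On DAC/TSA arrays 2 and 3 its signal lay near the limit of detection. Chd4 went from 9.46, 9.59 and 9.60 to 8.94, 9.0 and 8.91 by its brightest probe (1.51-fold, 1.33 to 1.71, log2 difference -0.60 ± 0.08, adjusted p = 0.000152). For both genes the groups were clearly apart. However, 2 dimmer Chd4 probes showed differences of -0.04 and -0.03 that did not pass. Averaging over the 3 probes, Chd4 no longer passed (-0.22, adjusted p = 0.0379). Chd4 minus Chd3 within an array was higher by 0.41 after treatment without overlap (exact permutation p = 0.1).

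The other CHD genes that fell were Chd2 (-0.45, adjusted p = 0.000931, by both of its probes) and Chd6 (-0.32, adjusted p = 0.00803), the second of which lost its call without any 1 of 4 arrays (adjusted p of 0.0293 to 0.039). Chd1, which binds methylated histone tails at active genes, had a difference of -0.28 by its brightest probe (adjusted p = 0.0196), whereas 2 of its 4 probes passed, at -0.70 and -0.36. It passed without untreated array 1 (adjusted p = 0.00486) and with arrays paired by number (adjusted p = 0.00868), as did Chd5 with pairing (-0.27 unpaired at adjusted p = 0.025, paired at 0.00669). The dimmer Chd5 probe, detected on no DAC/TSA array, passed unpaired (-0.33, adjusted p = 0.00688). Chd9 (-0.16), Chd1l, a remodeller activated by poly(ADP-ribose) (-0.15), and Chd8 (-0.09) did not pass. Of the NuRD partners on a separate list, 9 of 12 were measured, 3 fell (33.3%, against 21.4% of all genes) and none rose (22.5%). Gatad2b, a bridging subunit, went from 6.81, 6.64 and 6.84 to 5.67, 5.69 and 5.84 (log2 difference -1.03 ± 0.09, adjusted p = 7.83e-06), near the limit of detection. Mta1 (-0.43) and Mbd3 (-0.38) fell as well, and the deacetylase Hdac2 had a difference of 0.24 that did not pass (adjusted p = 0.32).

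**Figure D3:**
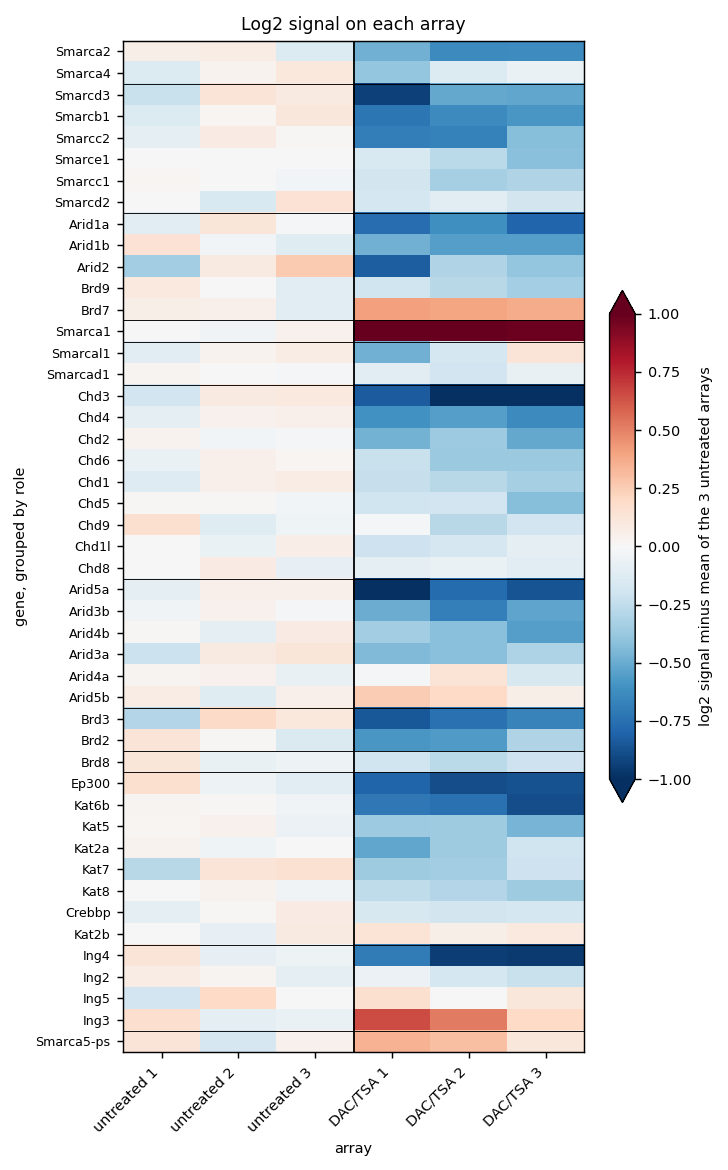
Log2 signal of each of the 47 genes (y axis, grouped by role) on each of the 6 arrays (x axis), as the difference from the mean of the 3 untreated arrays; blue is lower and red is higher, and the colour scale ends at -1 and 1. The 3 DAC/TSA columns are blue for most genes, and red on all 3 for Smarca1, Brd7, Ing3 and a few genes with smaller differences.

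Outside SWI/SNF, the ARID family of DNA-binding proteins included the second largest decrease. Arid5a, which in mice is known for stabilising transcripts of inflammatory cytokines, went from 7.27, 7.42 and 7.42 to 6.15, 6.60 and 6.50 (1.93-fold, 1.61 to 2.31, log2 difference -0.95 ± 0.12, adjusted p = 7.54e-05). Its paralogue Arid5b had a difference of 0.17 with overlapping groups (adjusted p = 0.139). Arid3b and Arid3a, which bind AT-rich DNA, were detected on 3 and 2 untreated arrays and on no DAC/TSA array. Against the limit of detection, Arid3b was at least 1.38-fold lower (means of 6.23 and 5.66, adjusted p = 0.000255) and Arid3a at least 1.06-fold lower (means of 5.85 and 5.46, adjusted p = 0.00945), and Arid3a lost its call without any 1 of 5 arrays (adjusted p of 0.0177 to 0.0428). Arid4b, a subunit of the Sin3 deacetylase complex, fell (-0.44, adjusted p = 0.00208), though not without untreated array 3 (0.0117) or DAC/TSA array 3 (0.0125), whereas Arid4a had a difference of -0.01 (adjusted p = 0.929). Arid3a and Arid3b were kept only through the untreated arrays, so that they could differ only downward. In all, 4 of 6 genes of this group were lower, against 21.4% of all genes, and none higher. The same 4 had an unadjusted p under 0.05 (62.7% of all genes, in either direction), and Arid3a and Arid3b are 2 of these 4.

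The BET proteins hold a pair of bromodomains and carry transcription factors and elongation factors to acetylated chromatin. Brd2 and Brd3 fell. Brd3 went from 9.02, 9.51 and 9.42 to 8.47, 8.57 and 8.65 (1.69-fold, 1.39 to 2.04, log2 difference -0.76 ± 0.12, adjusted p = 0.000542). Brd2 went from 11.53, 11.41 and 11.26 to 10.81, 10.84 and 11.10 (1.40-fold, 1.19 to 1.65, log2 difference -0.48 ± 0.11, adjusted p = 0.00332). The groups did not overlap for either gene, although DAC/TSA array 3 lay close to the untreated arrays for Brd2. Brd2 lost its call without untreated array 2 (adjusted p = 0.0122), DAC/TSA array 1 (0.0118) or DAC/TSA array 2 (0.0192). Brd8, a subunit of the Tip60 acetyltransferase complex, did not pass (-0.22, adjusted p = 0.0459).

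Bromodomain genes that the symbol rule does not take formed a separate list, which moved in both directions. Of 23 such genes 12 were measured, 8 fell and 2 rose, with a median of -0.56. The shares were 66.7% and 16.7%, against 21.4% and 22.5% of all genes. Pbrm1 and Brpf1, both lower, also stand on other partner lists. Zmynd8, a reader that recruits repressor complexes, went from 9.89, 9.97 and 9.91 to 8.91, 8.90 and 8.86 (log2 difference -1.03 ± 0.08, adjusted p = 2.34e-06). Trim33, a ubiquitin ligase that reads histone tails, went from 9.36, 8.99 and 9.13 to 8.29, 8.17 and 8.27 (-0.92 ± 0.10, adjusted p = 3.66e-05), and the histone methyltransferase Kmt2a fell by 0.90. The 2 genes that rose were Brdt, the BET gene of the male germline (0.84, adjusted p = 4.65e-05, detected on 1 of 3 untreated arrays), and Atad2, an AAA ATPase of proliferating cells (0.53, adjusted p = 0.00193).

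Of the 8 measured acetyltransferases 5 fell (62.5%, against 21.4% of all genes) and none rose. An unadjusted p under 0.05 was found for 6 of them (62.7% of all genes, in either direction). Ep300, a broad transcriptional coactivator, went from 9.57, 9.35 and 9.30 to 8.60, 8.52 and 8.54 (1.81-fold, 1.57 to 2.08, log2 difference -0.85 ± 0.09, adjusted p = 2.9e-05). Its close relative Crebbp gave 6.49, 6.59 and 6.66 untreated and 6.42, 6.39 and 6.40 after DAC/TSA, just apart, with a difference of -0.18 ± 0.08 that did not pass (adjusted p = 0.0921), and its second probe gave -0.17. Within an array, Ep300 minus Crebbp was lower by 0.68 after treatment without overlap (exact permutation p = 0.1, adjusted over the 6 paralogue pairs compared 0.15). With 3 arrays per group, no pair could reach a p under 0.1.

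Kat6b, which acetylates histone H3, went from 9.23, 9.21 and 9.17 to 8.49, 8.45 and 8.31 (1.72-fold, 1.52 to 1.95, log2 difference -0.78 ± 0.08, adjusted p = 2.51e-05). The untreated arrays were almost equal, and each DAC/TSA array lay far below them. Kat2a and Kat2b are alternative enzymes of the SAGA and ATAC coactivator complexes. Kat2a went from 8.60, 8.53 and 8.57 to 8.05, 8.21 and 8.37 (log2 difference -0.36 ± 0.10, adjusted p = 0.00962), just past the threshold, and lost its call without any 1 of 5 arrays (adjusted p of 0.0145 to 0.0334). Kat2b gave 6.56, 6.49 and 6.66 untreated and 6.71, 6.63 and 6.67 treated, with overlapping groups (0.10 ± 0.08, adjusted p = 0.348), and Kat2a minus Kat2b was lower by 0.45 after treatment without overlap (exact permutation p = 0.1).

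Kat5, the catalytic subunit of the Tip60 complex, went from 8.17, 8.20 and 8.10 to 7.80, 7.80 and 7.70 by its brighter probe (1.31-fold, 1.16 to 1.48, log2 difference -0.39 ± 0.08, adjusted p = 0.00203). Its dimmer probe, which lay near the limit of detection, gave a difference of 0.16 in the opposite direction that did not pass. Averaged over both probes, Kat5 no longer passed (-0.12, adjusted p = 0.251). It also lost its call without untreated array 2 (adjusted p = 0.0114) or DAC/TSA array 3 (0.0126). Kat8, the enzyme of the MSL and NSL complexes, fell by 0.30 (adjusted p = 0.00794), but not without any 1 of the 6 arrays (adjusted p of 0.0108 to 0.038). Kat7 did not pass (-0.30, adjusted p = 0.0533), but it did with arrays paired by number (adjusted p = 0.00881), without untreated array 1 (0.00121) and with both arrays numbered 1 left out (0.000896). Its dimmer probe, which lay near the limit of detection, gave 0.22.

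Acetyltransferases work within complexes, and their cofactors were examined as a separate list. Of 31 cofactors 21 were measured, with 11 lower, 1 higher and a median of -0.40. The shares were 52.4% and 4.76%, against 21.4% and 22.5% of all genes. Atxn7l3, an adaptor of the SAGA deubiquitinase, went from 7.62, 7.79 and 7.79 to 6.58, 6.70 and 6.78 (log2 difference -1.05 ± 0.09, adjusted p = 6.43e-06). Kansl3 and Phf20 of the NSL complex (-0.82 and -0.68), Msl1 and Msl2 of the MSL complex (-0.40 and -0.49), Atxn7 of SAGA (-0.70) and Tada3 (-0.54) fell too, and Jade1, a scaffold for Kat7, rose (0.57). Of 10 further acetyltransferases 7 were measured: Gtf3c4 fell (-0.51) and Hat1, which acetylates newly made histones, rose (0.34, adjusted p = 0.00493). Each was 14.3% of the measured list, against 21.4% lower and 22.5% higher among all genes. Among 29 subunits of the INO80, SRCAP and TIP60 complexes 22 were measured, 5 fell and Uchl5 rose (0.67). These are shares of 22.7% and 4.55%, against 21.4% and 22.5% of all genes. Mbtd1, a TIP60 subunit, went from 6.35, 6.66 and 6.94 to 5.52, 5.77 and 5.91 (-0.92 ± 0.15, adjusted p = 0.000498), and its values differed among arrays of a group more than those of the other 5 partners given array by array. The helicase-like ATPases Ino80 (-0.47) and Ep400 (-0.43) fell as well.

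**Figure D4:**
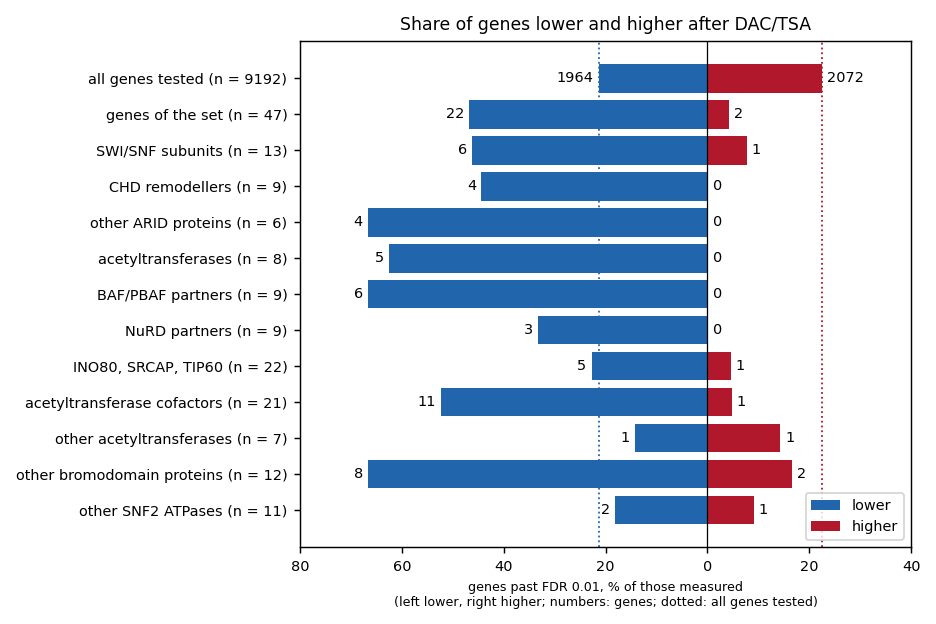
Percentage of measured genes that passed an FDR of 0.01, lower to the left and higher to the right (x axis), for all genes tested, for the 47 genes and for groups of them and of their partners (y axis, with the number measured); the number beside each bar counts genes and the dotted lines mark all genes. Of the 22 INO80, SRCAP and TIP60 subunits 5 were lower, close to the line of all genes. Of other bromodomain genes 8 of 12, and of BAF and PBAF partners 6 of 9, were lower, with Pbrm1 counted in both.

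The partner genes of all lists, each counted once, numbered 131. Of these 90 were measured, 32 fell and 7 rose, with a median of -0.24, and 35.6% were lower against the 21.4% of all genes given above. With median scaling over all probes, 9 were lower and 2 higher, where 8.44% of all genes were lower and 13.3% higher. Of the SNF2-family ATPases outside the symbol rule 11 of 14 were measured. The 2 that fell were Ino80 and Ep400, already named above (18.2%, against 21.4% of all genes). Rad54l, a recombination enzyme, was higher (0.45, adjusted p = 0.00173).

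The ING proteins bind methylated histone H3 tails and tether acetyltransferase or deacetylase complexes there. Ing4, a subunit of the Kat7 complex, went from 9.36, 9.15 and 9.18 to 8.53, 8.29 and 8.28 (1.82-fold, 1.56 to 2.12, log2 difference -0.87 ± 0.10, adjusted p = 4.74e-05). A second Ing4 probe passed as well (-0.71), and another one, which lay near the limit of detection, did not (-0.13). Ing3, a TIP60 subunit, was on the other side of 0, at 0.46 and 0.43 by its 2 probes, and missed the threshold narrowly (adjusted p = 0.0102 and 0.0132). Its DAC/TSA arrays all lay above the untreated arrays, and with arrays paired by number it passed (adjusted p = 0.000472), as it did without untreated array 1 (0.0024) or DAC/TSA array 3 (0.00275). Ing2 (-0.15) and Ing5 (0.09) did not pass.

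**Figure D5:**
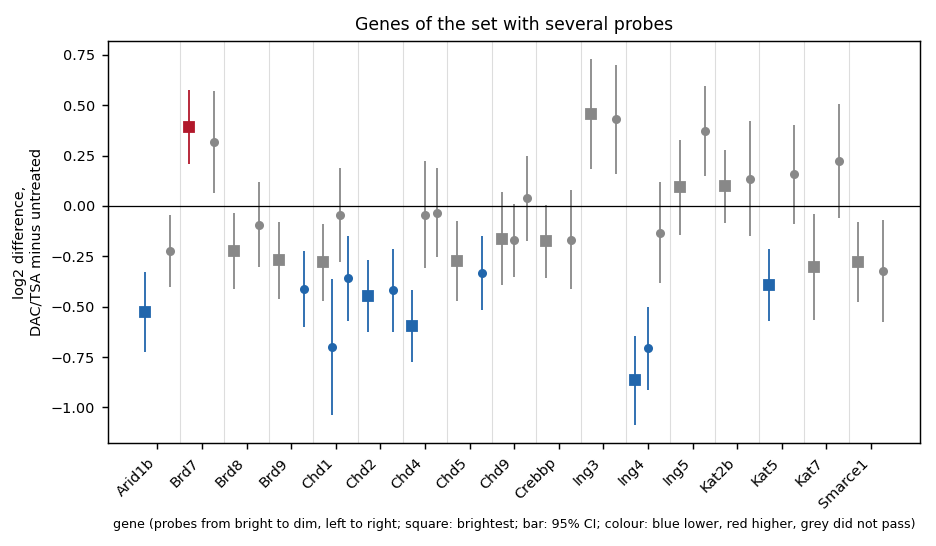
Log2 difference between DAC/TSA and untreated cells (y axis) for each probe of the 17 genes with several probes (x axis), from the brightest (square) to the dimmest; bars are 95% confidence intervals, and blue, red and grey mark lower, higher and not passed. Probes of Chd9, Kat5 and Kat7 lie on both sides of 0, and the Chd4 square lies well below the other Chd4 points.

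Several probes were kept for 17 of the 47 genes. For 8 of them the probes differed in whether they passed, and for 3 (Chd9, Kat5 and Kat7) they differed in sign. In these 3 genes the probe above 0 lay near the limit of detection. It was detected on 1 (Chd9) or 2 (Kat5 and Kat7) of the 3 untreated arrays. Counted by probes, 28 of the 69 were lower, 2 were higher and 39 did not pass. The remaining 2 SNF2-family genes of the set, Smarcal1, which reanneals DNA at stalled forks (-0.17), and Smarcad1 (-0.13), had 1 probe each and did not pass. No kept probe was named for Arid3c, Brd1, Brd10, Chd7, Ing1, Kat14, Kat6a and Smarcd1, nor for the 5 named above (Smarca5, Baz1a, Baz1b, Baz2a and Bptf), so they have no value here.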

How the data were processed

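Total RNA of 3 untreated and 3 DAC/TSA-treated TC-1/A9 cultures was measured on Illumina Mouse WG-6 arrays, and groups were taken from the sample titles. The authors extracted summarised bead signals with BeadStudio, and the deposited intensity of each probe is linear and not normalised. A deposited detection p-value stands beside it, which was matched to the signal column next to it. Deposited log2 values, which the authors quantile-normalised with lumi and limma, differed from those recomputed here by at most 0.0125. The build used by the authors is not given in the sources used here.

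Signals of 45281 probes were quantile-normalised and put on the log2 scale. Probes were kept where 1 or more arrays had a detection p not above 0.01 (17445 kept, 27836 removed), of which 13943 carried 1 gene symbol, 7 several and 3495 were unnamed here. The probe annotation covers the 16148 probes of the authors' log2 table, so a gene without a named kept probe is only not named here. Each gene was represented by its brightest kept probe. Groups were compared with limma 3.58.1 in R 4.3.3 (lmFit, eBayes, two-sided, Benjamini-Hochberg over kept probes, FDR 0.01). Values after ± are standard errors of the fit, and n = 3 arrays per group throughout, which limits the precision. The fit was tested on simulated data. A fold against a group without detection used the detection limit in each array and is given as "at least". Paralogue differences within arrays were compared by exact permutation tests in SciPy 1.17.1, and figures were drawn with matplotlib 3.10.9.

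Deviations from the group means correlated at r = 0.63, 0.24 and 0.36 between arrays numbered 1, 2 and 3, so the numbers were treated as pairs in an alternative fit. The pairing comes from the titles and these values, and no source ties a number to a shared day. Unlike-numbered arrays 2 and 3 correlated as well (0.37 and 0.38), whereas an array numbered 1 against one numbered 2 or 3 gave r of -0.53 to -0.41. The genes and lists were chosen with earlier results of these data known. Values on every array are given for the 8 genes with the largest decrease and up to 8 with the largest increase past the threshold, for a fixed group of paralogues (among them Smarca2, Smarca4, Smarca1, Smarca5, Chd3, Chd4, Brd2, Brd3, Ep300, Crebbp, Kat2a, Kat2b and Kat5) and for the 6 partner genes with the largest difference. Promoter sequences followed the same ranking, without chromosome 18.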

Additional observations from a re-analysis of the deposited data

How the results depend on the processing

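Of the 24 genes of the set that changed, Chd3, Ing4, Ep300 and Kat6b passed under each of the 17 alternatives and Smarca1 under each one that tested it, while 9 others lost their call under median scaling over all probes alone. Requiring detection on all 6 arrays left 7 of the 47 genes untested, among them Smarca1, Arid1a and Arid3b. Median scaling over all probes left 4 genes lower and 1 higher, and 776 lower and 1219 higher among all genes; the cause was not tested. With detection required on all 6 arrays, 1 gene was higher, as Smarca1 was not tested. Leaving out 1 array at a time gave 16 to 23 lower and 1 to 3 higher genes, and 1462 to 2055 lower and 1575 to 2198 higher among all genes. Without both arrays numbered 1, 26 were lower and 3 higher, with 2339 lower and 2525 higher among all genes. With the replicate number as a block, 29 were lower and 3 higher, with 2506 lower and 2706 higher among all genes. With this block no gene lost its call, and the calls gained are named beside the results. Other alternatives changed further calls. Averaged over probes, Chd1 (limma adjusted p = 0.00432) and Chd5 (0.00492) passed, as did Ing3 without a detection filter (0.00825). Without both arrays numbered 1, 6 genes gained a call and 1 lost it. Median scaling with the replicate block gave 4 gained and 2 lost calls. Median scaling over detected probes (18 lower, 2 higher) and median scaling with the replicate block (21 lower and 5 higher, with 2031 lower and 3255 higher among all genes) were chosen after seeing the data. The signs of 2 genes near 0 turned: Arid4a had 0.0788 with median scaling, with and without the replicate block, 0.00198 without both arrays numbered 1 and -0.0853 to 0.0633 when single arrays were left out, and Ing5 had -0.0362 without both arrays numbered 1 and -0.00309 to 0.192 when single arrays were left out. Kat8 lost its call under 10 alternatives, Kat2a under 9, Chd6 under 8, Arid3a under 7, and Brd2, Arid4b and Kat5 under 4 each. With neqc background correction, 19 were lower and 2 higher, with 1805 lower and 1917 higher among all genes. Chd3 (-1.42) and Arid5a (-1.21) kept the largest decreases. Arid1a (-1.105), Smarcd3 (-0.94) and Arid3b (-0.94) then fell more than Ing4 (-0.92), Ep300 (-0.90) and Kat6b (-0.83). With that correction, the within-array shifts of Chd4 minus Chd3 (0.80) and Arid1a minus Arid1b (-0.57) were larger than without it (0.41 and -0.19). Averaged over probes, Chd4 minus Chd3 gave 0.78. Arid3a, Arid3b and Arid1a in treated cells and Smarca1 in untreated cells lay near or below the detection limit.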
